A study of Mus musculus with 12 samples.

Results

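The glycolytic enzyme genes described here are Hk1, Hk2, Pfkl, Aldoa, Tpi1, Gapdh, Pgk1, Pkm and Ldha, 9 of the 38924 entries of the deposited expression table, chosen by gene symbol. RNA was sequenced from mouse haematopoietic stem and progenitor cells, which give rise to all blood cells and were prepared from bone marrow. The brain-recovered group has 6 libraries, replicates 4, 5, 6, 10, 11 and 12. Its cells were injected intravenously 24 h after cerebral ischaemia and reperfusion, a stroke model, and taken from the brain 24 h later. The naive group has 6 libraries, replicates 1, 2, 3, 7, 8 and 9, of the same kind of cells without injection. Donors of both groups were male C57BL/6 mice aged 4 to 5 weeks, and both groups had been depleted of marrow cells carrying CD45R, CD11b, CD3e, Ly-6G or TER119. The labels do not state how the injected cells were separated from brain tissue. Nor do they state that replicates come from separate animals. The p-values therefore rest only on spread between samples, pooled over entries of like abundance in the main test, and this may be technical. The comparison addresses how transcript levels in cells that had entered the injured brain differed from those in uninjected cells.

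Glycolysis converts glucose to pyruvate in the cytoplasm and yields ATP without oxygen, and lactate dehydrogenase then reduces pyruvate to lactate so that the pathway can go on. Hexokinase, phosphofructokinase and pyruvate kinase catalyse its regulated, effectively irreversible steps. Blood-forming stem cells are known for their reliance on glycolysis in the marrow, and several genes of the pathway are textbook targets of hypoxia-inducible factor, the transcription factor that responds to low oxygen.

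The values were treated as RPKM: reads over the length of the gene model, scaled by a constant of each library. Levels of different genes can therefore be compared within a library. The constant did not follow the reads recovered. In brain-recovered replicate 10, with 13424014 reads, 1 read over 1 kb was worth 1.15 RPKM. In naive replicate 3, with 654779 reads, it was worth 0.986 RPKM. Levels are thus not scaled to the reads of each library, and comparisons between libraries carry that limit. Labels and values are displaced against each other in stretches of the table. Each name was therefore checked by the gene length that the values imply. In 6 of the 9 genes (Hk1, Hk2, Pfkl, Gapdh, Pgk1 and Pkm) the implied length was exactly that of the labelled gene, for Pfkl, Gapdh and Pkm once transcripts of later numbers were left out of the annotation. Of the 21538 entries that could be checked, 60.7% had such a match. The implied length was 2754 bases for Aldoa and 2982 bases for Ldha, 0.511% and 0.303% from the annotated 2740 and 2973 bases. Tpi1, whose product interconverts the triose phosphates, was left out, since the row under its identifier is listed at 0 in every library. How reads with several possible positions were counted is not stated. Gapdh, Pgk1, Aldoa and Ldha have close processed copies elsewhere in the genome, so their values carry that uncertainty.

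The reads recovered from the values numbered 1129774 to 13424014 per brain-recovered library and 654779 to 2629425 per naive library. Brain-recovered replicate 12 and naive replicates 1, 2 and 3 stood apart, with 4380 to 7164 entries above 0 against 12066 to 23184 in the other 8 libraries. Genes used by every cell are listed at 0 in some libraries, so each value is given as listed. The median of the entries above 0 lay between 10.8 and 12.6 RPKM in every library, and serves below as the level of a typical detected entry. The 99th percentile ran from 246 to 11652 RPKM in brain-recovered and from 36.4 to 415 RPKM in naive libraries. Of 9 stem and progenitor markers, 4 had a usable row (Cd34, Cd48, Kit and Runx1), and their summed level was 0.107 to 101 RPKM in brain-recovered and 8.96 to 31.6 RPKM in naive libraries. Kit, the receptor that defines blood progenitors, was listed at 0 in brain-recovered replicate 12 and naive replicate 3, and lay between 2.57 and 13.9 RPKM in the other 10. Cd34 was listed at 0 in brain-recovered replicates 4, 6, 10 and 12 and in naive replicates 1, 2 and 8.

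Across the 8 genes with a usable row, levels above 100 RPKM occurred only in brain-recovered libraries. They were reached by Aldoa in replicates 4 and 6, Ldha and Pgk1 in replicate 5, and Pkm in replicates 6 and 10. The 8 genes summed to 1224, 1921, 9966 and 2158 RPKM in brain-recovered replicates 4, 5, 6 and 10, and to 72.5 and 27.4 RPKM in replicates 11 and 12. The sums in naive replicates 1, 2, 3, 7, 8 and 9 were 39.0, 137, 13.5, 74.3, 88.5 and 65.1 RPKM. On the deposited scale, 4 of the 6 brain-recovered libraries thus lay above every naive library, and the other 2 lay within the naive range. That scale does not follow the reads recovered. In brain-recovered replicate 6, with 8933530 reads, 1 read over 1 kb was worth 2.00 RPKM. In naive replicate 2, with 830607 reads, it was worth 0.756 RPKM. With that worth and the reads recovered divided out, only the sums of brain-recovered replicates 5 and 6 lay above every naive library. Those of replicates 4 and 10 lay below naive replicate 2, replicate 4 narrowly. With all 12 libraries, no gene passed the test between groups. Of the 6 genes tested, 0 were higher and 0 were lower (limma, adjusted p below 0.05 over 17689 entries), where 0.367% of all entries were higher and 0% lower. Before adjustment, 2 genes were higher and 0 lower at p below 0.05, beside 6.08% and 0.175% of all entries. That balance depended on the scaling: 184 entries were higher and 440 lower before adjustment under scaling to library totals, and 557 and 497 under quantile normalization. The 2 genes were Aldoa and Pkm, with exact permutation p-values of 0.264 and 0.132. Their limma p-values rest on the pooled spread of entries of like abundance and not on their own spread.

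**Figure D1:**
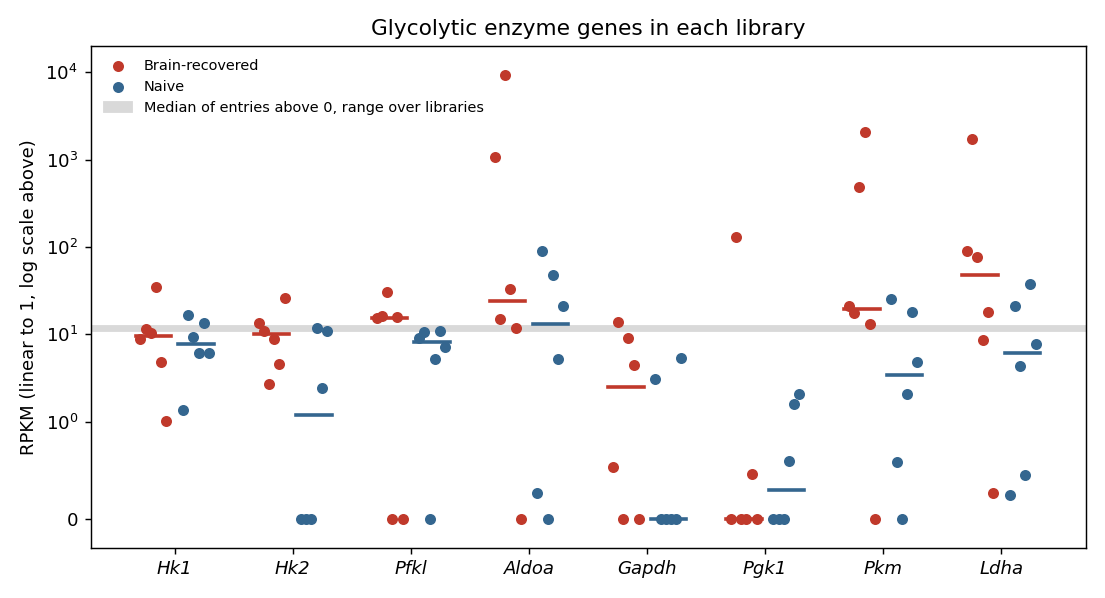
Level of each gene in the 6 brain-recovered and 6 naive libraries, in RPKM on an axis that is linear up to 1 and logarithmic above; points are libraries, bars are group medians, and the grey band is the range over libraries of the median entry above 0. The points above 100 RPKM, in Aldoa, Pgk1, Pkm and Ldha, are all brain-recovered libraries, while Hk1, Hk2, Pfkl and Gapdh do not exceed 34.8 RPKM in either group.

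The hexokinases phosphorylate glucose and so trap it in the cell. Hk1, the widely expressed form (ENSMUSG00000037012, chromosome 10, 62268855 to 62379908, minus strand, GRCm38 as for all positions below), was at 8.85, 11.6, 10.3, 34.8, 4.86 and 1.02 RPKM in brain-recovered replicates 4, 5, 6, 10, 11 and 12. Naive replicates 1, 2, 3, 7, 8 and 9 had 1.34, 16.7, 9.24, 6.11, 13.4 and 6.03 RPKM. It was detected in all 12 libraries, and the groups overlapped over most of their range. On the deposited scale, only brain-recovered replicate 10 exceeded every naive library. Per read recovered it did not, with 258 of 13424014 reads against 188 of 830607 in naive replicate 2. The log2 difference, here and below brain-recovered minus naive on the log2(RPKM + 1) scale, which understates changes of low genes, was 0.16 ± 1.28 (limma SE, n = 6 each, adjusted p = 0.9996). Its sign turned to negative under quantile normalization and under scaling to library totals.

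Hk2, the inducible form (ENSMUSG00000000628, chromosome 6, 82725025 to 82774454, minus strand), was detected in every brain-recovered library, at 13.3, 11.01, 2.68, 8.86, 4.52 and 26.1 RPKM. It was listed at 0 in naive replicates 1, 2 and 3, and stood at 11.9, 2.39 and 10.9 RPKM in naive replicates 7, 8 and 9. The 3 naive zeros thus fell in the 3 sparse naive libraries, while the sparse brain-recovered replicate 12 held the highest value, from 197 reads. Among all 12 libraries the log2 difference was 1.80 ± 1.22 (limma SE, adjusted p = 0.948), and the exact two-sided permutation p was 0.0606, not adjusted. Without the 4 libraries with under 10000 entries above 0, the difference was 0.01 ± 0.86 (adjusted p = 0.9989). Among libraries numbered 1 to 6 only, where all 3 naive libraries are sparse, it was 3.10 ± 0.66 (limma adjusted p = 0.0123), beside a median of 2.35 over all entries. In that subset 5320 of 17689 entries were higher and 0 lower at the same threshold. Hk2 exceeded Hk1, per length, in brain-recovered replicates 4 and 12, with ratios of 1.51 and 25.6, and in naive replicates 7 and 9, with ratios of 1.94 and 1.81. In the other 8 libraries Hk1 was the higher of the pair.

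Pfkl (ENSMUSG00000020277, chromosome 10, 77986947 to 78010083, minus strand) encodes the liver-type subunit of phosphofructokinase, which commits fructose phosphate to glycolysis. Its level was 15.3, 16.0, 30.5 and 15.6 RPKM in brain-recovered replicates 4, 5, 6 and 11, and it was listed at 0 in replicates 10 and 12. Naive replicates 1, 2, 7, 8 and 9 had 9.09, 10.7, 5.17, 10.97 and 7.06 RPKM, and replicate 3 was listed at 0. On the deposited scale, all 4 brain-recovered libraries in which Pfkl was detected lay above the highest naive value. Per read recovered, naive replicate 2 was higher than these 4, with 62 of 830607 reads. The highest of the 4 was replicate 11, with 66 of 3215118. With 2 brain-recovered libraries at 0, the log2 difference was 0.17 ± 1.25 (limma SE, adjusted p = 0.9996), and its sign turned under a pseudocount of 0.1 and under scaling to library totals. Fewer cells of a type and less RNA per cell cannot be told apart in such bulk libraries, for Pfkl or for any gene below.

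Aldoa (ENSMUSG00000030695, chromosome 7, 126795234 to 126800751, minus strand), which encodes the aldolase that splits fructose bisphosphate, reached the highest level of all members. It was at 1075 and 9361 RPKM in brain-recovered replicates 4 and 6, from 2155 and 12873 reads. The other brain-recovered replicates, 5, 10, 11 and 12, had 15.0, 32.6, 11.7 and 0 RPKM. Naive replicates 1, 2, 3, 7, 8 and 9 had 0.259, 88.6, 0, 48.1, 5.19 and 21.1 RPKM. Both high libraries stood above all naive libraries, at the 99.2 percentile of entries above 0 in each, whereas the other 4 lay inside the naive range. The log2 difference was 2.75 ± 1.38 (limma SE, adjusted p = 0.780, unadjusted p = 0.0471), and the exact permutation p was 0.264. It was 6.82 ± 3.21 among libraries 1 to 6 and −1.33 ± 1.69 among libraries 7 to 12, and neither passed (adjusted p = 0.155 and 0.836). Markers of glia were high in the same libraries. The 8 of 8 usable oligodendrocyte markers summed to 1952 and 23110 RPKM in brain-recovered replicates 4 and 6, within 51.4 to 23110 RPKM over the brain-recovered group and 17.1 to 99.7 RPKM over the naive group. Cldn11 was listed at 0 in replicate 4, and Mal and Opalin in replicate 6. The 6 of 8 usable astrocyte markers summed to 1143 and 2187 RPKM there, within 5.25 to 2187 RPKM in brain-recovered and 25.0 to 90.8 RPKM in naive libraries. In replicate 6 the astrocyte marker Aldoc was at 0. Replicate 5, with 15.0 RPKM of Aldoa, had an oligodendrocyte sum of 2285 RPKM, above that of replicate 4. Replicate 6 also had the highest sums of 6 of 7 usable endothelial markers (14390 RPKM; 1.90 to 14390 in brain-recovered and 32.1 to 156 in naive libraries; Slco1a4 at 0) and of 5 of 8 usable erythroid markers (2310 RPKM; 0 to 2310 in brain-recovered and 0 to 43.3 in naive libraries; Hbb-bt and Klf1 at 0). Of the endothelial sum, Ly6c1 alone gave 13010 RPKM. Replicate 4 had the highest sum of 4 of 8 usable neutrophil markers, 8081 RPKM. The range was 0 to 8081 RPKM in brain-recovered and 0 to 6458 RPKM in naive libraries. In replicate 4, S100a9 alone gave 8025 RPKM, and Lcn2, Ltf and Mmp8 were at 13.7, 9.52 and 32.5 RPKM. S100a9 was also at 6458 and 4466 RPKM in naive replicates 1 and 3. The part of these markers in the Aldoa result was not tested.

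Gapdh (ENSMUSG00000057666, chromosome 6, 125161715 to 125166467, minus strand) encodes the enzyme that oxidises glyceraldehyde phosphate and is often used as a reference gene. Here it was among the least abundant members, at 0.535, 13.7, 8.97 and 4.45 RPKM in brain-recovered replicates 4, 5, 10 and 11 and at 0 in replicates 6 and 12. In naive replicates 1 and 9 it was at 3.06 and 5.40 RPKM, and it was listed at 0 in the other 4. The most reads behind any of these values were 39, in brain-recovered replicate 5. Gapdh had a value of at least 1 in 5 libraries and so missed the filter of 6. Without that filter its log2 difference was 0.93 ± 0.97 (limma SE, adjusted p = 0.990). Set against beta-actin (Actb), another common reference gene, Gapdh was at a ratio of 0.000147 to 0.00293 in the 4 brain-recovered libraries that had it, and at 0.0238 and 0.385 in naive replicates 1 and 9. Actb itself was at 1518 to 39162 RPKM in those 4 brain-recovered libraries and at 128 and 14.0 RPKM in those naive ones, so the ratios do not show a lower Gapdh level. Both Ldha and Gapdh were detected in 6 libraries. Ldha was the higher, per length, in brain-recovered replicates 4, 5 and 11 and in naive replicate 9, and Gapdh in brain-recovered replicate 10 and naive replicate 1.

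Pgk1 (ENSMUSG00000062070, chromosome X, 106187100 to 106203699, plus strand), which encodes the enzyme of the first ATP-forming step, was at 131 RPKM in brain-recovered replicate 5, from 327 reads, and at 0.462 RPKM in replicate 11. It was listed at 0 in the other 4 brain-recovered libraries. Naive replicates 7, 8 and 9 had 0.596, 1.59 and 2.06 RPKM, and replicates 1, 2 and 3 were listed at 0. A single library therefore carried the difference, and outside it no more than 7 reads were recovered in any library. With 3 libraries at or above 1, Pgk1 was not tested, and without the filter its log2 difference was 0.66 ± 0.87 (limma SE, adjusted p = 0.992).

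Pkm (ENSMUSG00000032294, chromosome 9, 59656368 to 59679375, plus strand) encodes the muscle-type pyruvate kinase, which forms pyruvate and ATP, and the values do not separate its splice forms. Brain-recovered replicates 6 and 10 had 485 and 2064 RPKM, from 629 and 4664 reads. Replicates 4, 5 and 11 had 21.1, 17.7 and 13.2 RPKM, and replicate 12 was listed at 0. In naive replicates 1, 2, 3, 7, 8 and 9 the level was 25.0, 0.582, 0, 2.06, 17.9 and 4.82 RPKM. On the deposited scale, the 3 intermediate brain-recovered libraries lay within the naive range, and 2 lay far above it. Per read recovered, replicate 6, with 629 of 8933530 reads, had about the share of naive replicate 1, with 91 of 1285882. Replicate 10, with 4664 of 13424014, had a larger share. The log2 difference of 3.12 ± 1.33 was the largest among the members (limma SE, adjusted p = 0.633, unadjusted p = 0.0195; exact permutation p = 0.132). It was positive within both number ranges, 4.08 ± 2.01 for libraries 1 to 6 and 2.15 ± 1.72 for libraries 7 to 12 (adjusted p = 0.167 and 0.794). The 7 of 8 usable markers of microglia and macrophages summed to 128 and 21229 RPKM in brain-recovered replicates 6 and 10, within 1.67 to 21229 RPKM over the brain-recovered and 29.9 to 138 RPKM over the naive libraries, so that only replicate 10 lay above the naive range. C1qa and C1qb alone gave 19416 and 1764 RPKM of the sum in replicate 10, where Aif1 and Trem2 were at 36.8 and 12.1 RPKM. Tmem119, a defining microglial gene, was listed at 0 in both libraries, and C1qc and Cx3cr1 in replicate 10. The 7 of 8 usable markers of granulocyte and monocyte progenitors summed to 8028 and 46459 RPKM in the same libraries, within 131 to 46459 RPKM in brain-recovered and 0.857 to 132 RPKM in naive libraries, with Cebpe and Csf1r at 0 in replicate 6. Endothelial markers summed to 14390 and 6500 RPKM in replicates 6 and 10, both above the naive maximum of 156 RPKM. Ly6c1 alone gave 13010 and 6464 RPKM of these sums. In replicate 10, Flt1, Kdr and Slco1a4 were at 2.78, 22.4 and 10.5 RPKM, and Cdh5 and Cldn5 at 0. In replicate 6, Cdh5 was at 1309 RPKM. The glial and erythroid sums of replicate 6, given with Aldoa, were high as well. Their part in the Pkm result was not tested.

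Ldha (ENSMUSG00000063229, chromosome 7, 46841475 to 46855627, plus strand), which encodes the lactate dehydrogenase subunit that favours lactate formation, was above 0 in all 12 libraries. In brain-recovered replicate 12 and naive replicates 1 and 7 it rested on 1 read each. It was at 90.3, 1705, 77.2, 8.48, 17.7 and 0.265 RPKM in brain-recovered replicates 4, 5, 6, 10, 11 and 12. Naive replicates 1, 2, 3, 7, 8 and 9 had 0.239, 20.8, 4.30, 0.448, 37.1 and 7.74 RPKM. On the deposited scale, replicates 4, 5 and 6 lay above every naive library, the most of any member after Pfkl. Replicates 10, 11 and 12 lay within the naive range. Per read recovered, replicates 4 and 6, with 196 of 4149106 and 115 of 8933530 reads, lay below naive replicate 2, with 82 of 830607. Replicate 5, with 5649 of 4954434, lay above it. The value of 1705 RPKM, from 5649 reads, was at the 99.6 percentile of its library. The log2 difference was 2.55 ± 1.34 (limma SE, adjusted p = 0.823; exact permutation p = 0.158), with 5.46 ± 2.20 for libraries 1 to 6 and −0.37 ± 1.63 for libraries 7 to 12. In brain-recovered replicate 5, where Ldha and Pgk1 were both highest, the oligodendrocyte markers summed to 2285 RPKM and the 6 of 9 usable neuronal markers to 393 RPKM, with no marker of either list at 0. Astrocyte markers summed to 228 RPKM and those of granulocyte and monocyte progenitors to 215 RPKM there, both above their naive ranges, with Cebpe at 0. The neuronal sums were 8.05 to 401 RPKM over the brain-recovered and 0.161 to 134 RPKM over the naive libraries, and their part in these levels was not tested.

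**Figure D2:**
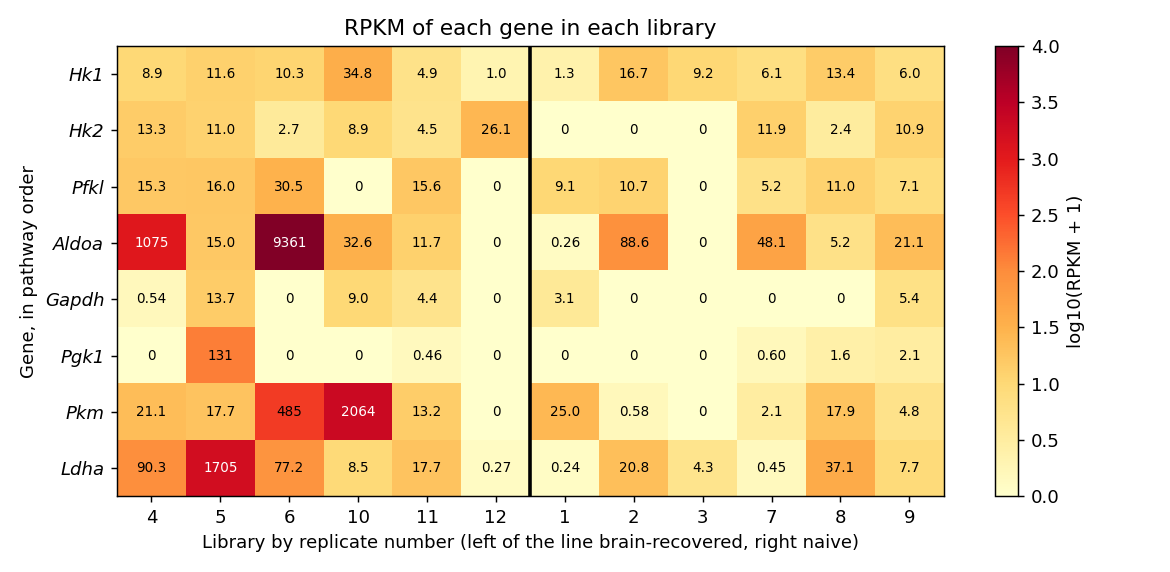
RPKM of the 8 genes (rows, in pathway order) in each library (columns, brain-recovered left of the line and naive right of it), coloured by log10(RPKM + 1). The dark cells sit in different columns for different genes: Aldoa in brain-recovered replicates 4 and 6, Ldha in replicate 5 and Pkm in replicates 6 and 10.

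The genes thus did not all peak in the same library. Gapdh, Pgk1 and Ldha were highest in brain-recovered replicate 5, and Pfkl and Aldoa in replicate 6. Hk1 and Pkm were highest in replicate 10, and Hk2 in replicate 12. The highest member was Aldoa in brain-recovered replicates 4 and 6, Ldha in replicates 5 and 11, Pkm in replicate 10 and Hk2 in replicate 12. In replicates 4, 5, 6, 10 and 12 that gene alone made up 87.8%, 88.8%, 93.9%, 95.7% and 95.3% of the summed RPKM, but in replicate 11 only 24.5%. Naive libraries were led by Aldoa (replicates 2, 7 and 9), Pkm (replicate 1), Hk1 (replicate 3) and Ldha (replicate 8), with shares from 32.4% to 68.3%. Replicate 11 was the only brain-recovered library in which all 8 genes were above 0 without any over 100 RPKM. Over the 12 libraries, which share their depth and detection between genes, Pearson's r of log2(RPKM + 1) ran from −0.14 (Aldoa with Gapdh) to 0.69 (Pgk1 with Ldha) among the 28 pairs. The value for Pgk1 with Ldha rested on brain-recovered replicate 5, and was 0.07 without it. The entries most like the mean of the 8 genes, out of 10213 of exact length, were Hoxa13 (r = 0.93), Prr3 (0.92), Cycs (0.91), B230319C09Rik (0.91) and Fignl2 (0.91). Cycs, which encodes cytochrome c, was at 13.1 to 182 RPKM in brain-recovered replicates 4, 5, 6, 10 and 11 and at 0 in replicate 12. In the naive libraries it was at 0 to 26.2 RPKM.

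Over the 6 genes tested, the median log2 difference was 2.17, beside 0.64 over all 17689 entries. It was 0.58 under quantile normalization and 0.81 under scaling to library totals, beside −0.06 and −0.33 over all entries, and −0.31 in libraries 7 to 12, beside −1.07. All 6 differences were positive, against 74.5% of all entries, though those of Hk1 and Pfkl turned negative under scaling to library totals. A p that misses the threshold does not show that levels were alike. None of the 6 had groups without overlap, where 0.147% of all entries lay higher and 0.0226% lower without overlap. Aldoa, Pkm and Ldha, 3 of the 6, had at least 100 RPKM in a brain-recovered library and in no naive library, as had 12.7% of all entries tested. The exact permutation p-values of the 8 genes ran from 0.0606 (Hk2) to 0.955 (Pgk1), where the design allows 0.00216.

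**Figure D3:**
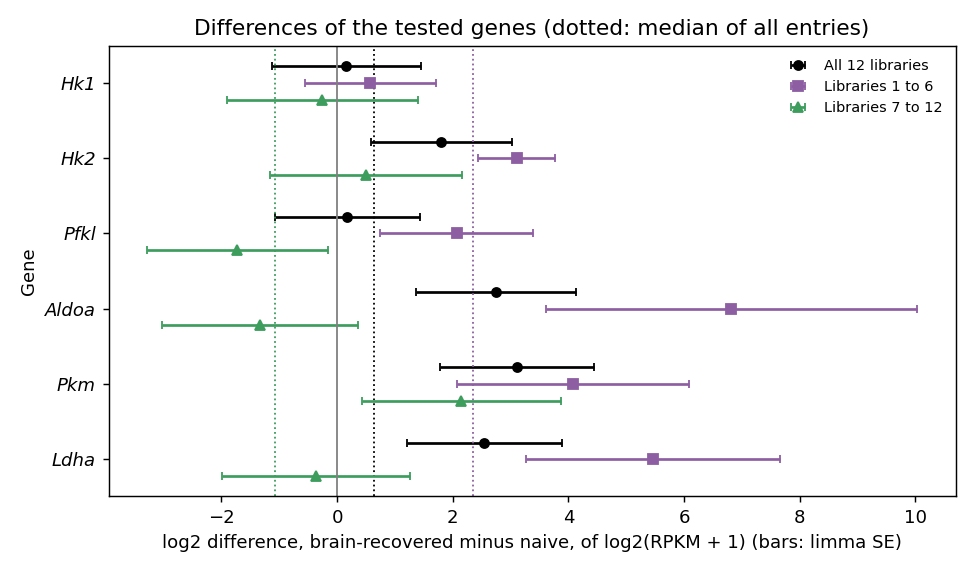
Difference in mean log2(RPKM + 1), brain-recovered minus naive, of the 6 tested genes with its limma SE, for all 12 libraries (black circles), libraries 1 to 6 (purple squares) and libraries 7 to 12 (green triangles); dotted lines give the median over all entries in the same colours. Aldoa, Ldha, Pfkl and Hk1 are positive in libraries 1 to 6 and negative in libraries 7 to 12. Hk1 and Pfkl also change sign under scaling to library totals. Only the purple Hk2 value passed the threshold, as did 5320 of all 17689 entries in libraries 1 to 6.

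Outside the members, no gene of glucose metabolism passed the test either. Of 66 further genes in 7 lists, 49 had a usable row and 44 were tested, and 0 were higher and 0 lower (limma, adjusted p below 0.05). Before adjustment, 2 (4.55%) were higher and 0 lower at p below 0.05, beside 6.08% and 0.175% of all entries. Their median log2 difference was 0.75, with 35 positive (79.5%, beside 74.5% of all entries) and 9 negative. The lists were chosen with earlier results of these data known.

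The pentose phosphate pathway, which branches from the product of hexokinase to make NADPH and ribose, had the highest median, 2.35 over 6 tested genes, all positive. It held both genes with an unadjusted p below 0.05, a share over the lists no larger than that of all entries. Taldo1, which encodes transaldolase, was at 26.1, 2666, 99.2, 5.76, 6.75 and 0 RPKM in brain-recovered replicates 4, 5, 6, 10, 11 and 12. In naive replicates 7, 8 and 9 it was at 4.68, 0.894 and 1.65 RPKM, and it was listed at 0 in naive replicates 1, 2 and 3. On the deposited scale, 5 of the brain-recovered libraries lay above every naive library, and the log2 difference was 3.94 ± 1.26 (limma SE, adjusted p = 0.209). Like Ldha and Pgk1, Taldo1 was highest in brain-recovered replicate 5. Tkt, which encodes transketolase and is named after its values were seen because its implied length was near but not exact, was at 692, 284, 2831, 79.4, 38.6 and 0 RPKM in brain-recovered replicates 4, 5, 6, 10, 11 and 12. Its naive levels were 0.116 to 23.3 RPKM. On the deposited scale, again 5 brain-recovered libraries thus lay above all naive ones (3.56 ± 1.40, limma adjusted p = 0.553). Per read recovered, fewer did. Tkt in brain-recovered replicates 10 and 11 then lay below naive replicate 1, and Taldo1 in brain-recovered replicate 10 below naive replicates 7 and 9. Without brain-recovered replicate 12, both passed, at 4.89 ± 1.24 for Taldo1 and 4.91 ± 1.32 for Tkt (limma adjusted p = 0.0146 and 0.0269). Without that sparse library, 229 of 17689 entries were higher, against 65 with all libraries, and the median over all entries was 1.04. Pgls and Pgd, which encode enzymes of the oxidative branch, had log2 differences of 2.36 and 2.34 and did not pass.

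Among 12 tested isozymes and other steps of glycolysis, the median log2 difference was 0.79. The largest differences of exact length were Hk3, a further hexokinase (1.86), Pgam2, the muscle phosphoglycerate mutase (−1.33), and Ldhb, the other main lactate dehydrogenase subunit (1.19). Hk3 was at 957 RPKM in brain-recovered replicate 6, the library in which Aldoa was also highest, and at 0 to 21.0 RPKM in the other 5. Its naive levels were 0 to 9.22 RPKM. Glucose and lactate transport had a median of 0.31 over 6 tested genes. Bsg, the chaperone of lactate transporters, was at 1.46, the lactate transporter genes Slc16a1 and Slc16a3 at 1.03 and −0.77.

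At the fate of pyruvate, the inhibitory pyruvate dehydrogenase kinases Pdk4, Pdk1 and Pdk2 had log2 differences of 0.73, 0.67 and 0.63, close to the 0.64 of all entries, and the median of the 4 tested regulators of glycolytic flux was 0.65. Pyruvate dehydrogenase and carboxylase genes had a median of 0.64 over 5 tested genes. Pdha1, a catalytic subunit of pyruvate dehydrogenase, had the lowest difference of any gene in the lists, −2.06 ± 1.11 (limma SE, adjusted p = 0.852). It was at 0 to 6.03 RPKM in brain-recovered and 0 to 16.8 RPKM in naive libraries. Dlat and Pdhx, of the same complex, were at 1.73 and 0.27. The 5 tested genes of gluconeogenesis, the reverse route to glucose, had a median of 0.71, with G6pc3 at 1.91, Pck2 at 0.87 and Fbp1 at 0.71. Hypoxia-inducible factor genes and targets outside glycolysis had a median of 1.05 over 6 tested genes. Arnt, the constant partner subunit of the factor, was at 1.58, the mitophagy receptor gene Bnip3l at 1.57 and the prolyl hydroxylase gene Egln3 at 0.87. Bnip3l was at 7169 RPKM in brain-recovered replicate 6, at 0.410 to 8.40 RPKM in the other 5 and at 0 to 20.7 RPKM in the naive libraries. Hif1a, which encodes the oxygen-regulated subunit, was at or above 1 in too few libraries to be tested.

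**Figure D4:**
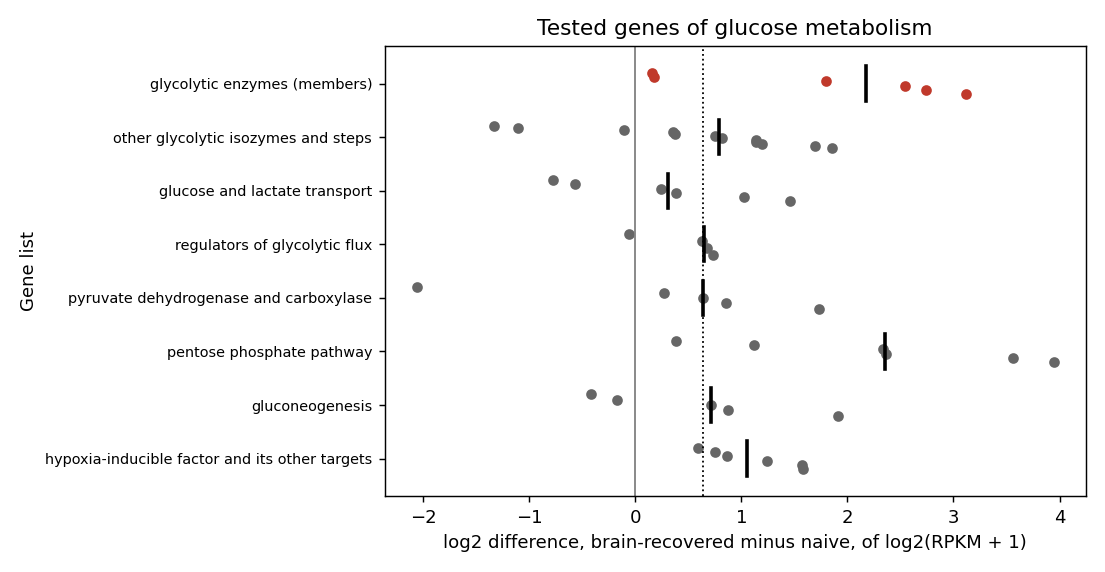
Difference in mean log2(RPKM + 1), brain-recovered minus naive, of every tested gene in each list of glucose metabolism; points are genes (members in red), vertical bars are list medians and the dotted line is the median over all 17689 entries. The members and the pentose phosphate genes have medians of 2.17 and 2.35, and the other lists lie between 0.31 and 1.05; no point passed the adjusted threshold.

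The promoters of the 4 members that exceeded 100 RPKM in a brain-recovered library are shown because hypoxia-inducible factor binds a short core in this gene family. Windows run from 250 bases before to 50 bases after the start site (RefSeq, GRCm38.p6). Where a gene has several start sites, the window with the most matches is given, or the first by coordinate in a tie. Capitals mark the core ACGTG or GCGTG on either strand, so that they read CACGT or CACGC on the opposite strand, and the overlap of both strands reads CACGTG.
Aldoa, chr7:126799129-126799428, minus strand: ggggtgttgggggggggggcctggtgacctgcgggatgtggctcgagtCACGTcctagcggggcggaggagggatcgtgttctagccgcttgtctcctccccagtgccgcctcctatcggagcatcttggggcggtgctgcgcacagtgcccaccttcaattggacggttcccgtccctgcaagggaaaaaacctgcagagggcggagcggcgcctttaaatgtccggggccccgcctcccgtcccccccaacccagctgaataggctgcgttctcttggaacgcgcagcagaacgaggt
Pgk1, chrX:106186850-106187149, plus strand: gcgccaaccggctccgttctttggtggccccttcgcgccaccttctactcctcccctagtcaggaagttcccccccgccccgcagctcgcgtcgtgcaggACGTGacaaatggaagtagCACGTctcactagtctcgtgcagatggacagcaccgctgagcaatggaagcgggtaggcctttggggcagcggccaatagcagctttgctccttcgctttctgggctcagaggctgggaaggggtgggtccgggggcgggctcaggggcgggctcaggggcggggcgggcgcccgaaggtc
Pkm, chr9:59656977-59657276, plus strand: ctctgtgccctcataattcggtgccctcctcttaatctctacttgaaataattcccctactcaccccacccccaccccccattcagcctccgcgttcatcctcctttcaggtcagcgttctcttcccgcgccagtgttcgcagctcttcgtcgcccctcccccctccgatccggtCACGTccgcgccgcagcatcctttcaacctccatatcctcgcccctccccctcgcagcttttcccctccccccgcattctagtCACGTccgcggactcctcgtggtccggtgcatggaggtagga
Ldha, chr7:46845554-46845853, plus strand: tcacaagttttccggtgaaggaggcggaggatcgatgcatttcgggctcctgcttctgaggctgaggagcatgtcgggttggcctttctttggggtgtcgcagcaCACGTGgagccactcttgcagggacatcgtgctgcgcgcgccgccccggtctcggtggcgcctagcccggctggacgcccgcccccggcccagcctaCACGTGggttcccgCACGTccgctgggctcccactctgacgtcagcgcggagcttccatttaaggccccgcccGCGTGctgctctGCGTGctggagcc

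The Ldha window held 7 matches, overlapping ones on the 2 strands counted separately, the Pkm and Pgk1 windows 2 each and the Aldoa window 1. Hk1, Gapdh, Hk2 and Pfkl had 5, 3, 2 and 1 in their best windows, and Tpi1 had 0. Of the 14 windows of the 9 genes, 10 (71.4%) held a core, beside 43.8% of all 32851 promoter windows. A pair of overlapping Aldoa windows is counted among the 10 for a single shared match. A match is a description of these letters and not a binding site. It says nothing about where the factor was bound in these cells.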

How the data were processed

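RNA was measured in 6 brain-recovered and 6 naive libraries, assigned to groups from their titles. According to the labels, a low-input kit (SMARTer Ultra Low Input v3) turned lysate into amplified cDNA, and Nextera XT libraries were sequenced on an Illumina HiSeq. The submitters' processing notes name Trimmomatic 0.32 and the build GRCm38. No aligner, counter or annotation release is given in the sources used here. The authors deposited a table whose header names no unit. Its values were treated as RPKM, because in all 24388 entries above 0 the deposited values are whole reads (tolerance 0.004 of a read) divided by a length and scaled by a constant per library. The other 14536 entries are 0 throughout, and 37607 of 38924 identifiers matched GENCODE M21.

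The length behind each entry was compared with the exon length of the labelled gene in M21, or in M21 without transcripts numbered above 185000, a limit chosen after seeing the data because it gave the most matches. A length was exact where it equalled that of the gene or divided it by a small whole number, and near within 2%. Labels with any other length were not used. Group differences were fitted on log2(RPKM + 1) with limma 3.58.1 (R 4.3.3; eBayes with trend, no covariates). The fit covered the 17689 entries that had at least 1 RPKM in 6 or more libraries, and p-values were adjusted over all of them by Benjamini-Hochberg, with a threshold of 0.05. The weight given to the pooled variance trend was infinite, so each SE rests on the spread of entries of like abundance. Single genes were also tested by exact two-sided permutation over 924 assignments of the 12 libraries. Every member with a usable row was named, with, from each other list, the 3 largest absolute differences of exact length. Likeness was Pearson's r over 12 libraries with the mean of the members. Members and lists were chosen with earlier results of these data known, and 3 listed genes are not reported here and were left out of counts and sums over lists. The remaining steps ran in Python 3.11.15 with pandas 2.3.3, numpy 2.4.6 and matplotlib 3.10.9. Precision is set by the reads behind each value, and amplified reads that carry no molecular identifier cannot be counted as separate molecules. Alternatives were other scalings, filters, pseudocounts and variance models, and subsets of libraries.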

Additional observations from a re-analysis of the deposited data

Results flagged for a closer look

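In 16 groups of 6 libraries (8 genes, each in brain-recovered and in naive cells), the highest and the lowest library were compared with the rest on the log2(RPKM + 1) scale, and 2 stood far from the others. Chance gives about 1 such library in 20 groups for normally distributed values, a rate that does not hold for Pgk1, with 4 of 6 brain-recovered libraries at 0. Pgk1 in brain-recovered replicate 5 was at 131 RPKM, where the next highest brain-recovered library had 0.462 RPKM, and the gap took 0.922 of the range of the group. Pfkl in naive replicate 3 was at 0 RPKM, where the next lowest naive library had 5.17 RPKM, and the gap took 0.733 of the range. Naive replicate 3 was the library with the fewest reads, 654779.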

How the results depend on the processing

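The counts of members called higher and lower were 0 under all 25 alternatives, except that 1 member, Hk2, was higher in libraries 1 to 6 only (log2 difference 3.10), with 3 naive libraries that are all sparse. Over all entries, 65 were higher with all libraries. The count was 33 with a filter of at least 10 RPKM in 6 libraries, 115 without a variance trend and 5320 in libraries 1 to 6. It was 0 under quantile normalization, under scaling to library totals, without the 4 sparse libraries and in libraries 7 to 12, where 557, 184, 465 and 171 entries were higher and 497, 440, 298 and 748 lower at an unadjusted p below 0.05. Leaving out 1 library gave 37 (naive replicate 8) to 229 (brain-recovered replicate 12), and 42, 39 and 43 without brain-recovered replicate 11 and naive replicates 1 and 9. Of the other glucose genes, 13 were higher in libraries 1 to 6, and 0 to 2 when 1 library was left out.

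No member passed when any single library was left out. The log2 differences then ran from 2.00 to 4.20 for Pkm, 1.31 to 3.95 for Aldoa, 1.44 to 3.52 for Ldha, 1.50 to 2.24 for Hk2, −0.23 to 0.60 for Hk1 and −0.36 to 0.75 for Pfkl. Under quantile normalization and scaling to totals, the differences were 1.70 and 1.39 for Pkm, 0.58 and 1.11 for Aldoa, 2.07 and 0.51 for Ldha and 0.58 and 1.17 for Hk2. Hk1 was negative without brain-recovered replicate 10 (−0.23) or naive replicate 1 (−0.20), under quantile normalization (−0.11), scaling to totals (−1.77) and in libraries 7 to 12 (−0.25). Pfkl was negative with a pseudocount of 0.1 (−0.30), scaling to totals (−1.30), in libraries 7 to 12 (−1.72), and without brain-recovered replicate 4 (−0.06), 5 (−0.07), 6 (−0.25) or 11 (−0.06) or naive replicate 3 (−0.36). In libraries 7 to 12, Aldoa (−1.33) and Ldha (−0.37) were negative too. The median over all entries was 2.35 in libraries 1 to 6 and −1.07 in libraries 7 to 12. The causes were not tested. No paired analysis was possible because the groups share no replicate number. Depth limits the low values, where 1 read is worth 0.0773 to 0.892 RPKM in these genes.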

Other observations

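The label of Tpi1 sits in the displaced cells of a row that is 0 in every library. An entry labelled Tpi-rs8, a gene of 708 bases, has an implied length of 2209 bases, which is the length of Tpi1 without later transcripts. That length is shared by 4 entries above 0 and 5 annotated genes, so the entry was not given the name Tpi1. It stood at 1.87, 2.44, 21.8, 0, 9.39 and 0 RPKM in brain-recovered replicates 4, 5, 6, 10, 11 and 12. In naive replicates 1, 2, 3, 7, 8 and 9 it stood at 0, 2.05, 0, 13.9, 4.04 and 6.87 RPKM.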
